A study of Mus musculus with 2 samples.

Results

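Genes that mark the neurons around Purkinje cells were followed in RNA from Purkinje cells cut out of mouse cerebellum by laser capture. They were 30 marker genes of granule cells, unipolar brush cells and cerebellar interneurons, each matched by its Ensembl identifier, out of 43346 Ensembl genes in the deposited tables. The study profiled a pair of libraries, pool 1 and pool 2, each from 30 cells with added spike-in RNA and no treatment named in the labels. The animals were adult males of B6CASTF1/J, a first-generation cross of C57BL/6 and CAST, aged 14 months. Both pools carry 1 donor identifier and form a single group, so there is no condition to compare, and the spread between pools may be technical. The depth was 31503819 expected counts (estimated reads) for pool 1 and 28709397 for pool 2.

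Purkinje cell bodies form a thin sheet between the granular and molecular layers of the cerebellar cortex. Granule cells, small excitatory neurons below that sheet, send parallel fibres past the Purkinje dendrites. Stellate and basket cells of the molecular layer inhibit Purkinje cells, Golgi cells inhibit granule cells, and unipolar brush cells are excitatory interneurons of the granular layer. Laser capture removes a piece of a tissue section around a cell body. In RNA pooled in this way, fewer cells of a type and less RNA per cell cannot be told apart.

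Most of the listed Purkinje cell genes were present at high levels, as the label of the pools implies. The level used is TPM, transcript abundance corrected for length and scaled to a fixed sum per library. A list of 20 Purkinje cell genes, led by the G protein subunit gene Gng13 and by Pcp4 and Pcp2, summed to 97483 TPM in pool 1 and 96714 TPM in pool 2. Its lowest genes were no higher than many of the neighbouring-neuron genes. Skor2 had 0.06 TPM in pool 1 and 0.14 TPM in pool 2, Lhx5 had 1.25 and 0.68 TPM, and Foxp2 had 2.92 and 3.17 TPM. The 30 neighbouring-neuron genes summed to 74.5 TPM in pool 1 and 89.0 TPM in pool 2 (81.8 ± 10.3, SD, n = 2), which was 0.0764% and 0.0921% of the Purkinje sums. Other cell types were also represented, and 13 Bergmann glia and astrocyte genes, led by the glutamate transporter gene Slc1a3, Sparcl1 and the connexin gene Gja1, summed to 3108 TPM in pool 1 and 5331 TPM in pool 2. Red blood cell genes, which are mostly globins, summed to 2453 TPM in pool 1 and 16.3 TPM in pool 2. The part of this glial and blood material in the levels of the 30 genes was not tested.

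The sequences below are upstream windows of Prkcd, the member with the highest level, which has separate annotated starts, and of the detected transcription factor genes Zic1 and Zic5, whose highest transcript starts at most 19 bases from the RefSeq start. They were chosen after the values were seen. Each is the run of 250 bases before a RefSeq start site (GRCm38.p6), printed 5′ to 3′ on the gene's own strand, which is minus in every case. Capitals mark matches to the E-box pattern CANNTG, which fall at the same places on both strands, though the letters of a match can differ between strands.
Prkcd, downstream start, chr14:30610311-30610560: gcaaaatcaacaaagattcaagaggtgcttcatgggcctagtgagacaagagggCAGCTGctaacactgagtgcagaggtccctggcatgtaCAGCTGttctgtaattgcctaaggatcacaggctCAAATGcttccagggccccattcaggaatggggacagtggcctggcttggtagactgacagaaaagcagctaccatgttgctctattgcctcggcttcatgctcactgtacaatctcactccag
Prkcd, upstream start, chr14:30626209-30626458: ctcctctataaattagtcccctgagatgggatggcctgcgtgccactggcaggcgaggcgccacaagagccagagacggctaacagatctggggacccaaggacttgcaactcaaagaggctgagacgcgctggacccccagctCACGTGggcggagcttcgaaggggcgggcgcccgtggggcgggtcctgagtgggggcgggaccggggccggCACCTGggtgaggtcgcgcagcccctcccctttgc
Zic1, chr9:91365769-91366018: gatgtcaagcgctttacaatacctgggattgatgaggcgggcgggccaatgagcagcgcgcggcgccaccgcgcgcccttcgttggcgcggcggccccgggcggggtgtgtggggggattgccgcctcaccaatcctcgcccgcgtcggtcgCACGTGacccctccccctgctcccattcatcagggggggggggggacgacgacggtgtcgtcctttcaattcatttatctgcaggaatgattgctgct
Zic5, chr14:122465659-122465908: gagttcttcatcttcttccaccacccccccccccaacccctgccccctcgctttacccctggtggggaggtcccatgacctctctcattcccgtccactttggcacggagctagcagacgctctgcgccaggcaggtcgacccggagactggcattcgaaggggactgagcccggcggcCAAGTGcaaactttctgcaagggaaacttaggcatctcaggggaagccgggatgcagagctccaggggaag

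The window at the downstream Prkcd start held 3 E-box matches, 1 CpG and 50.8% G and C. The window at the upstream Prkcd start held 2 matches, 18 CpG and 67.6% G and C. The Zic1 window held 1 match and 27 CpG, and the Zic5 window held 1 match and 11 CpG. A match was in 66.2% of all 32851 RefSeq windows of that length, whose median G and C content was 52.4%, so a match describes the letters only. RefSeq windows were found for 28 of the 30 genes.

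Of the 30 genes, 11 (36.7%) were detected, meaning at least 1 TPM, in both pools. Among all 21474 protein-coding genes 30.3% met that rule, so at that level the share of the marker genes lay near the background. At the lower level of 0.1 TPM the members numbered 25 of 30, against 50.8% of protein-coding genes. A further 4 reached 1 TPM in a single pool and 15 stayed under it in both. By role, the genes detected in both pools were 6 of 8 granule cell transcription factors, 3 of 8 other granule cell genes, 0 of 2 unipolar brush cell genes, 2 of 7 molecular layer interneuron genes and 0 of 5 genes of Golgi cells and Purkinje layer interneurons. Because genes differ in length, 1 TPM stood for 52.8 to 582 counts. The median of log2(TPM + 1) over the 30 genes was 0.59 for pool 1 and 0.81 for pool 2, while all protein-coding genes had 0.25 and 0.29 and the Purkinje list had 9.13 and 9.39.

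**Figure D1:**
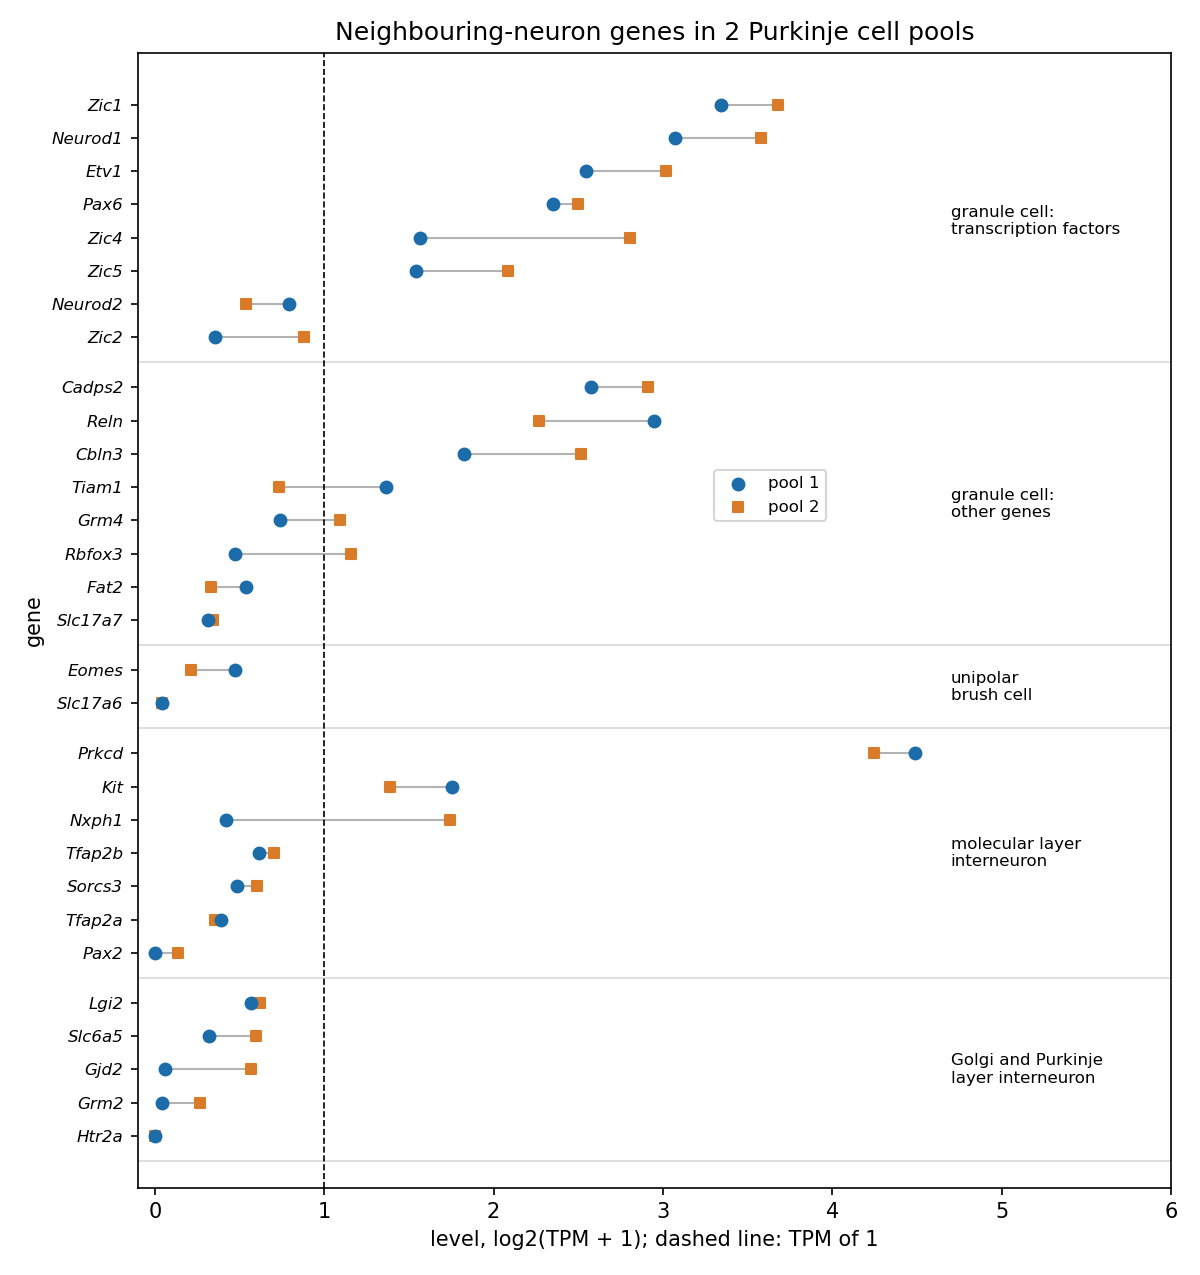
Level of each of the 30 genes as log2(TPM + 1) on the horizontal axis, in pool 1 (circles) and pool 2 (squares), joined by a grey line and grouped by role. Prkcd lies farthest right, at 21.45 TPM and 17.98 TPM, 6 of 8 granule cell transcription factors lie right of the dashed line in both pools, and all 5 genes of Golgi cells and Purkinje layer interneurons lie left of it.

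Among the 16 granule cell genes of the list, the transcription factor genes Zic1 and Neurod1 had the highest mean levels. Zic1, a zinc finger factor (identifier ENSMUSG00000032368.10, chromosome 9, 91358058 to 91365810 on mm10), stood at 9.13 TPM in pool 1 and 11.8 TPM in pool 2 (10.5 ± 1.89, SD, n = 2), from 2042 and 2273 counts. Neurod1, a basic helix-loop-helix factor of granule cell differentiation (ENSMUSG00000034701.9, chromosome 2, 79452521 to 79456751), stood at 7.39 TPM in pool 1 and 10.9 TPM in pool 2, from 789 and 1006 counts. The ranges of Zic1 and Neurod1 over the pools overlapped, so neither is placed above the other, although Zic1 was the higher within each pool. By TPM they ranked 2186 and 2446 among protein-coding genes in pool 1, and 2091 and 2217 in pool 2.

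Etv1, an ETS factor of maturing granule cells (chromosome 12, 38779380 to 38870484), reached 4.84 TPM in pool 1 and 7.09 TPM in pool 2. Pax6, a paired-box factor of the granule cell lineage (chromosome 2, 105668900 to 105697364), reached 4.11 TPM in pool 1 and 4.65 TPM in pool 2. The zinc finger factor Zic4 was at 1.96 TPM in pool 1 and 5.98 TPM in pool 2. By TPM, Zic4 thus differed more between the pools than Pax6. So it did in counts scaled with TMM, edgeR's factor for library composition. There the log2 ratio, pool 1 over pool 2, was -0.43 for Zic4 and 0.18 for Pax6. Under spike-in scaling Zic4 had 0.34 and Pax6 0.95, while genes reaching 1 TPM in at least 1 pool had a median of 0.74. Zic5 was at 1.91 TPM in pool 1 and 3.25 TPM in pool 2. All 6 detected factors were higher in pool 2 by TPM. So were 68.5% of all 8958 genes that reached 1 TPM in at least 1 pool. By counts 5 of the 6 were higher in pool 2 under TMM scaling and all 6 were higher in pool 1 under spike-in scaling. Over all those genes the median log2 count ratio was -0.03 with TMM and 0.74 with spike-ins, and their shares by direction were not counted.

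Neurod2 and Zic2, relatives of these factors, were under 1 TPM in both pools. Neurod2, the close relative of Neurod1, had 0.73 TPM in pool 1 and 0.45 TPM in pool 2, from 90 and 48 counts. Zic2 had 0.28 TPM in pool 1 and 0.84 TPM in pool 2, from 27 and 69 counts. The range of Neurod1 over the pools lay wholly above that of Neurod2, and the range of Zic1 wholly above that of Zic2.

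The Zic genes lie in divergent pairs, Zic1 with Zic4 on chromosome 9 and Zic2 with Zic5 on chromosome 14. Zic1 and Zic4 share 3398 bases on opposite strands, and the starts of Zic2 and Zic5 lie 9758 bases apart with no overlap. The sources used here do not say whether strand was kept in counting, so reads in a shared stretch could belong to either gene. The single annotated Zic4 transcript that reaches into Zic1 had 0 counts in both pools. Gm37477, which lies inside Zic4 on the opposite strand, had 30.7 counts in pool 1 and 34.0 in pool 2. Cerkl, which spans Neurod1, had 14 counts in pool 1 and 0 in pool 2, and Pax6os1, antisense to Pax6, had 24 and 0.

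Among the other granule cell genes, Cadps2, Reln and Cbln3 were detected in both pools. Cadps2, which primes dense-core vesicle release (chromosome 6, 23262773 to 23839421), reached 4.97 TPM in pool 1 and 6.54 TPM in pool 2. Reln, which encodes the secreted glycoprotein reelin (chromosome 5, 21884454 to 22344702), reached 6.71 TPM in pool 1 and 3.81 TPM in pool 2. Cbln3, a cerebellin secreted by granule cells (chromosome 14, 55878913 to 55884392), reached 2.54 TPM in pool 1 and 4.73 TPM in pool 2. Reln was the only one of these 3 with the higher TPM in pool 1.

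A further 3 genes of that role crossed 1 TPM in a single pool. Tiam1, an exchange factor for the small GTPase Rac, was at 1.57 TPM in pool 1 and 0.66 TPM in pool 2. Grm4, the metabotropic glutamate receptor of parallel fibre terminals, was at 0.67 TPM in pool 1 and 1.13 TPM in pool 2. Rbfox3 encodes the neuronal nuclear antigen NeuN, which granule cells carry and Purkinje cells are known to lack. It was at 0.39 TPM in pool 1 and 1.23 TPM in pool 2, from 46 and 122 counts.

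Slc17a7, the vesicular glutamate transporter of granule cells, had 0.24 TPM in pool 1 and 0.27 TPM in pool 2, from 28 and 27 counts. Fat2, a giant protocadherin of granule cells, had 0.45 TPM in pool 1 and 0.26 TPM in pool 2. The long transcript of Fat2 put 264 counts in pool 1 and 132 in pool 2 behind these low levels. Slc17a7 lay below Zic1, Neurod1, Cadps2, Reln and Cbln3 in both pools.

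Both unipolar brush cell genes were under 1 TPM in both pools. Eomes, the T-box factor of these cells, had 0.39 TPM in pool 1 and 0.16 TPM in pool 2, from 55 and 19 counts. Slc17a6, a vesicular glutamate transporter, had 0.03 TPM in both, from 5 and 4 counts, where 3 counts would give 0.0175 and 0.0203 TPM. Companion genes of that cell type were also low, with the peptide gene Grp at 0 counts in both pools, the LIM factor Lmx1a at 0 and 1 counts and the homeobox factor Otx2 at 0.22 and 0.18 TPM. Calb2, the calcium buffer calretinin, which granule cells also carry, was at 1.05 TPM in pool 1 and 2.21 TPM in pool 2.

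Prkcd stood well above the other molecular layer interneuron genes of the list, and the cell type that its RNA came from was not tested. Prkcd, protein kinase C delta (ENSMUSG00000021948.11, chromosome 14, 30595354 to 30626210), had 21.45 TPM in pool 1 and 17.98 TPM in pool 2 (19.7 ± 2.45, SD, n = 2), from 2203 and 1590 counts. It was the highest of the 30 genes, and its range lay above that of Zic1, the next in order. Among protein-coding genes it ranked 1294 in pool 1 and 1610 in pool 2. The transcript Prkcd-201, which starts 8 bases inside the downstream RefSeq start whose window is printed above, held 86.3% of its counts in pool 1 and 89.0% in pool 2. The transcript from the upstream start held 13.45% and 10.4%.

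Kit, the receptor tyrosine kinase of molecular layer interneurons (chromosome 5, 75574916 to 75656722), was at 2.38 TPM in pool 1 and 1.62 TPM in pool 2, from 495 and 290 counts. Nxph1, a secreted ligand of neurexins, was at 0.34 TPM in pool 1 and 2.35 TPM in pool 2, from 33 and 204 counts. Kit was thus detected in both pools and Nxph1 in pool 2 only. The sorting receptor gene Sorcs3 had 0.40 TPM in pool 1 and 0.52 TPM in pool 2. The AP-2 factors Tfap2b and Tfap2a averaged 0.580 ± 0.0707 and 0.295 ± 0.0212 TPM (SD, n = 2). Pax2, a factor of young inhibitory interneurons, had 0 counts in pool 1, where 3 counts would give 0.0247 TPM, and 11 counts in pool 2.

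Genes of Golgi cells and Purkinje layer interneurons were all under 1 TPM. Slc6a5, the glycine transporter of glycinergic terminals, had 0.25 TPM in pool 1 and 0.51 TPM in pool 2, from 71 and 124 counts. Lgi2, a secreted leucine-rich protein, had 0.48 TPM in pool 1 and 0.54 TPM in pool 2, from 36 and 35 counts. Both were therefore counted well above 3 reads in each pool. Gjd2, the neuronal connexin, had 5 counts in pool 1 and 47 in pool 2. A pair of entries named A530058N18Rik begin at 114013602 and 114013563 on the opposite strand, while Gjd2 ends at 114013619, so the overlaps are short. The entries had 35.4 and 18.5 counts in pool 1, more than Gjd2 itself, and 12 and 0 counts in pool 2. Whether reads in the overlaps affect the counts of Gjd2 was not tested. The metabotropic glutamate receptor gene Grm2 had 4 counts in pool 1 and 23 in pool 2. The serotonin receptor gene Htr2a had 0 counts in both pools, where 3 counts would give 0.0257 TPM in pool 1 and 0.0299 TPM in pool 2. It was the only one of the 30 without a count.

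By mean TPM the order was Prkcd, Zic1, Neurod1, Etv1, Cadps2, Reln, Pax6, Zic4, Cbln3, Zic5, Kit, Nxph1, Tiam1, Grm4, Rbfox3, Neurod2, Tfap2b, Zic2, Lgi2, Sorcs3, Slc6a5, Fat2, Tfap2a, Eomes, Gjd2, Slc17a7, Grm2, Pax2, Slc17a6 and Htr2a. Of the 29 steps between neighbours in that order, 4 had ranges over the pools that did not overlap. These were Prkcd above Zic1, Neurod1 above Etv1, Slc17a7 above Grm2 and Slc17a6 above Htr2a. Ranges over the pools leave out counting error. In pool 2, Slc17a7 had 27 counts (interval for counting error 17.8 to 39.3) and Grm2 had 23 (14.6 to 34.5), which overlap. Slc17a6, at 0.03 TPM from 5 and 4 counts, lay at the 0.0299 TPM that 3 counts of Htr2a would give in pool 2. Slc17a7 is therefore not placed above Grm2, nor Slc17a6 above Htr2a. Neighbours at the remaining steps had overlapping ranges and are not ordered by this rule. The rule does not pair values within a pool, so an overlap does not show that neighbours had equal levels.

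Companion granule cell genes outside the 30 ran at like levels, with 7 of 12 (58.3%) detected in both pools, against 30.3% of protein-coding genes. The calcium sensor gene Vsnl1 had 17.9 TPM in pool 1 and 17.2 TPM in pool 2, Chn2, a Rac regulator, had 8.28 and 9.94 TPM, and the GABA-A receptor subunit gene Gabra6 had 8.99 and 8.96 TPM. Atoh1, the factor of granule cell progenitors, had 0 counts in both pools. The 16 granule cell genes among the 30 had a median log2(TPM + 1) of 1.55 for pool 1 and 2.18 for pool 2, against 1.25 and 1.57 for these 12.

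Companion genes of inhibitory neurons were led by the gene of neuropeptide Y. Of these 11 genes, 6 (54.55%) were detected in both pools, against 30.3% of protein-coding genes. Npy had 135 TPM in pool 1 and 411 TPM in pool 2, from 2560 and 6719 counts, above each of the 30 genes. Gad2, whose enzyme makes GABA, had 11.9 TPM in pool 1 and 13.5 TPM in pool 2. Purkinje cells release GABA themselves, so genes of GABA handling do not separate the cell types.

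**Figure D2:**
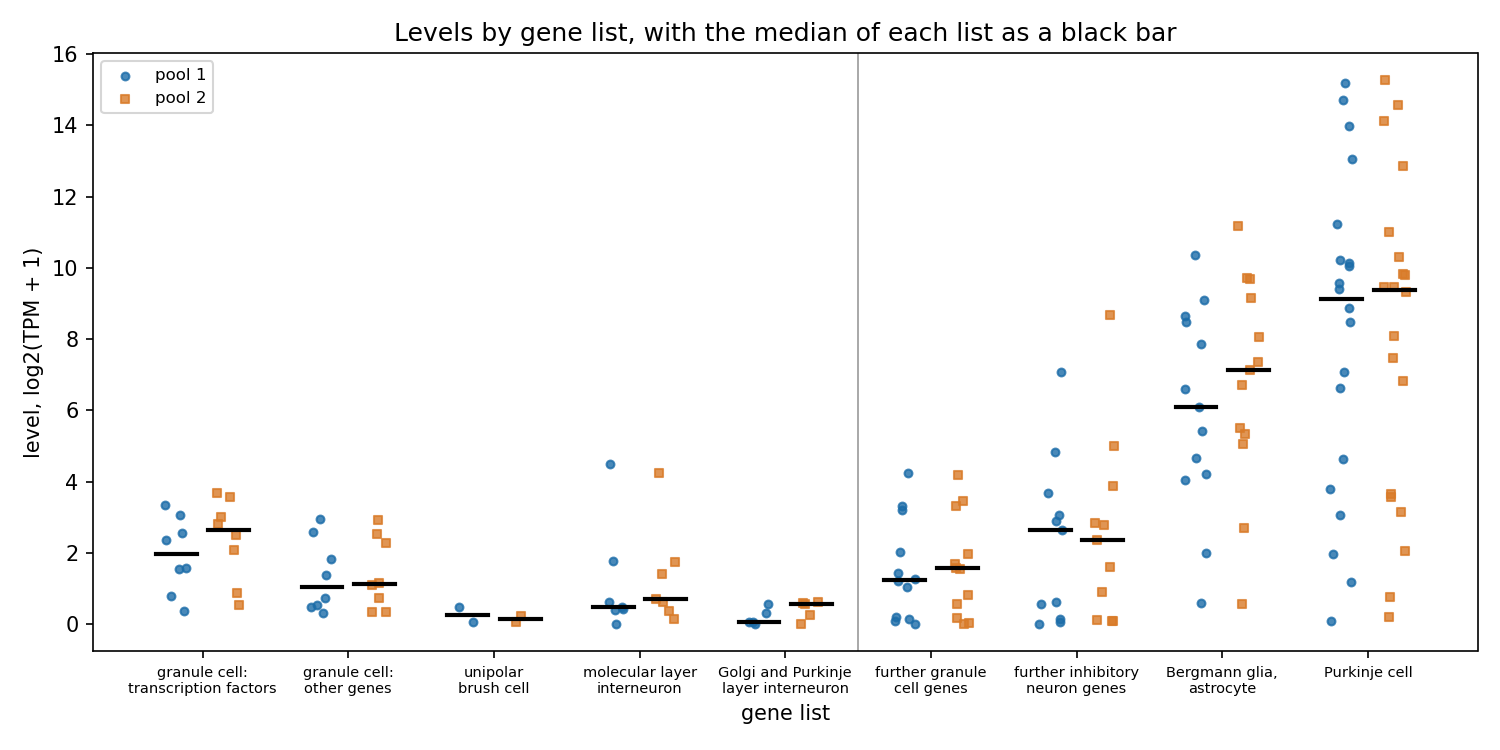
Levels of single genes as log2(TPM + 1) on the vertical axis by gene list, in pool 1 (circles, left in each list) and pool 2 (squares, right), with a black bar at each list's median. The lists of the 30 genes, left of the grey line, have medians from 0.06 to 2.65, against 9.13 and 9.39 for the Purkinje list at the far right.

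Several members carried much of their TPM on transcripts not annotated as protein-coding, a feature looked for after the values were seen. The retained-intron transcript of Etv1 with 3605 bases held 89.9% of its counts in pool 1 and 81.6% in pool 2. A processed transcript of Cadps2 with 1931 bases held 68.0% of its counts in pool 1 and 62.5% in pool 2. For Reln the scales differed. The short non-coding Reln-205 (891 bases) held 57.3% and 80.3% of TPM but 21.3% and 22.2% of counts, while the coding Reln-207 (11699 bases) held 69.1% and 76.4% of counts. TPM divides by length, so a short transcript gains TPM per read. The Cadps2 transcript (23262843 to 23355919) and Reln-205 (21884895 to 21896068) lie near the 3′ end of their genes, within the spans of coding transcripts. Whether their reads came from coding RNA was not tested.

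Over protein-coding transcripts alone, Etv1 had 0.43 TPM in pool 1 and 1.12 TPM in pool 2, Cadps2 had 0.70 and 0.51 TPM, and Reln had 0.85 and 0.72 TPM. Tiam1 had 0 TPM in pool 1 and 0.09 TPM in pool 2 on that scale. The members detected in both pools then numbered 8 of 30, while 26.2% of protein-coding genes were. Of the 11 members detected over all transcripts, 3 (Etv1, Reln and Cadps2) had under 50% of their TPM on coding transcripts in both pools, a share of 27.3%, against 14.3% of 6506 detected protein-coding genes.

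Pax6 and Zic4 were intermediate. Coding transcripts held 68.9% of the TPM of Pax6 in pool 1 and 53.8% in pool 2, and its highest transcript, Pax6-202, held 39.3% and 32.8%. Coding transcripts held 59.2% of the TPM of Zic4 in pool 1 and 48.5% in pool 2. Its long coding transcript of 3891 bases held 67.9% (pool 1) and 25.1% (pool 2) of its counts, and its retained-intron transcript of 1734 bases held 5.28% and 28.4%. The leading Zic4 transcript by counts therefore differed between pools. Zic1, Neurod1, Zic5, Cbln3 and Kit each had 100% of their TPM on coding transcripts in both pools. For Neurod1 and Cbln3 only protein-coding transcripts are annotated, so no other value was possible.

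**Figure D3:**
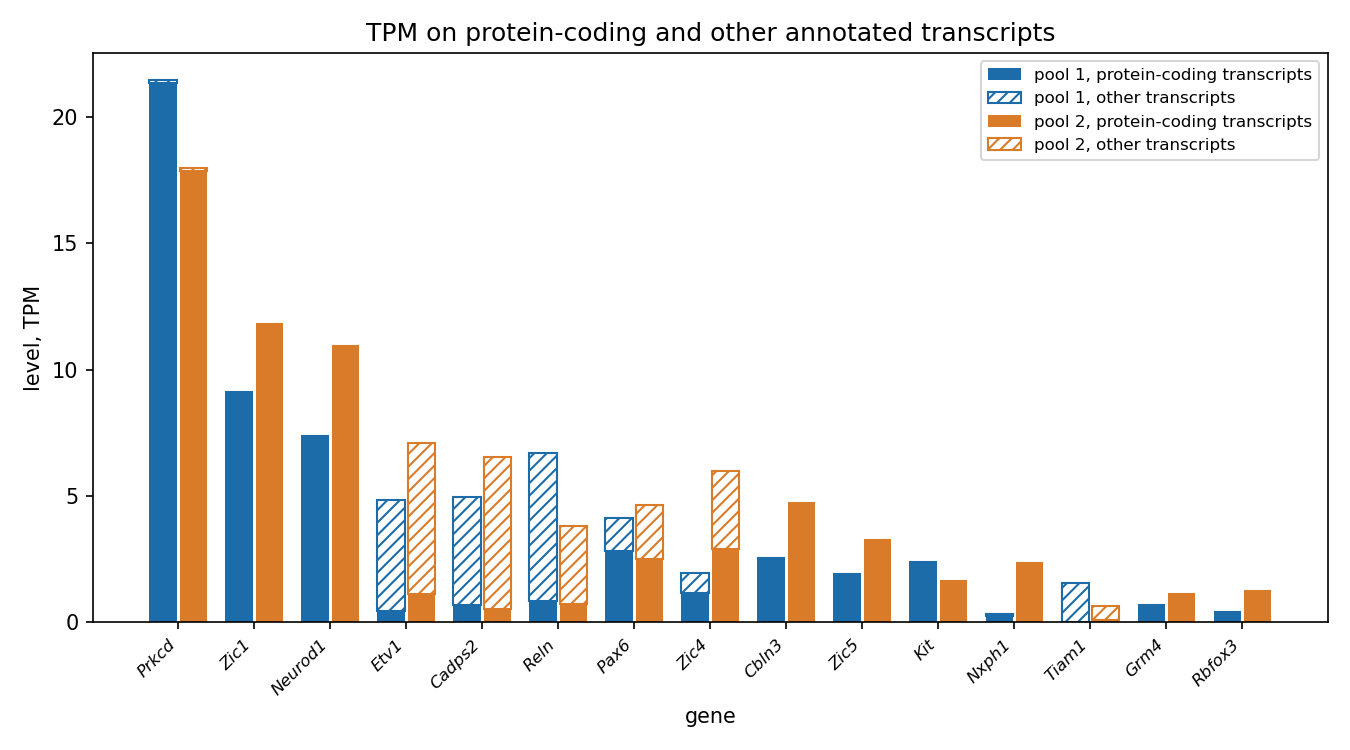
TPM on the vertical axis for the 15 members detected in at least 1 pool, in pool 1 (left bars) and pool 2 (right bars), split into protein-coding transcripts (filled) and all other annotated transcripts (hatched). Most of the bar is hatched for Etv1, Cadps2, Reln and Tiam1, while the bars of Zic1 and Neurod1 are filled.

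Between the pools, 4 of the 15 members that reached 1 TPM in at least 1 pool differed by more than 2-fold in TPM. Among all 8958 genes under that filter 24.3% did, so the members' share lay near the background. Tiam1 was 2.38-fold higher in pool 1. Zic4, Nxph1 and Rbfox3 were higher in pool 2, by 3.05-fold, 6.91-fold and 3.15-fold. A single library stood on each side, so there is no replicate check.

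Counts gave smaller differences for Zic4 and Tiam1. Zic4 had 238 counts in pool 1 and 335 in pool 2, a TMM-scaled log2 ratio, pool 1 over pool 2, of -0.43 (exact binomial 95% interval -0.68 to -0.19). Tiam1 had 121 counts in pool 1 and 107 in pool 2, a log2 ratio of 0.24 (-0.15 to 0.63). The effective length that turns counts into TPM was 2999 bases in pool 1 and 1601 bases in pool 2 for Zic4, and 1902 and 4637 bases for Tiam1. The count ratios of Nxph1, at -2.57 (-3.15 to -2.03), and Rbfox3, at -1.35 (-1.87 to -0.85), were still beyond 2-fold. Under spike-in scaling the ratio was -1.80 for Nxph1 and -0.58 for Rbfox3, and these were the only 2 of the 15 still higher in pool 2.

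Under TMM scaling the intervals of Prkcd, Kit, Reln and Cadps2 lay above 0, those of Pax6 and Tiam1 included 0, and those of the other 9 lay below 0. Among all 8958 genes under that filter 73.3% had an interval clear of 0, so intervals clear of 0 were common. Cadps2 was higher in pool 1 by counts, with a log2 ratio of 0.41 (0.21 to 0.62), and higher in pool 2 by TPM. Of the 15, 6 were higher in pool 1 under TMM scaling and 13 under spike-in scaling, which moves every gene by the same factor. The share of all genes by direction was not counted under these scalings, so only their medians stand beside these counts. Spike-ins held 66459 counts in pool 1 and 118099 in pool 2, and with them the median log2 count ratio of the members was 0.48, where all genes under that filter had 0.74. With TMM the members' median was -0.29 and that of all those genes was -0.03, a gap of -0.26 that no scaling factor can change. By log2(TPM + 1) the medians were -0.35 and -0.24, a gap of -0.11. The 12 detected Bergmann glia and astrocyte genes were all higher in pool 2 by TPM, but 11 of 12 were by TMM-scaled counts and 5 of 12 by spike-in-scaled counts. The part of that glial difference in the members' ratios was not tested.

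**Figure D4:**
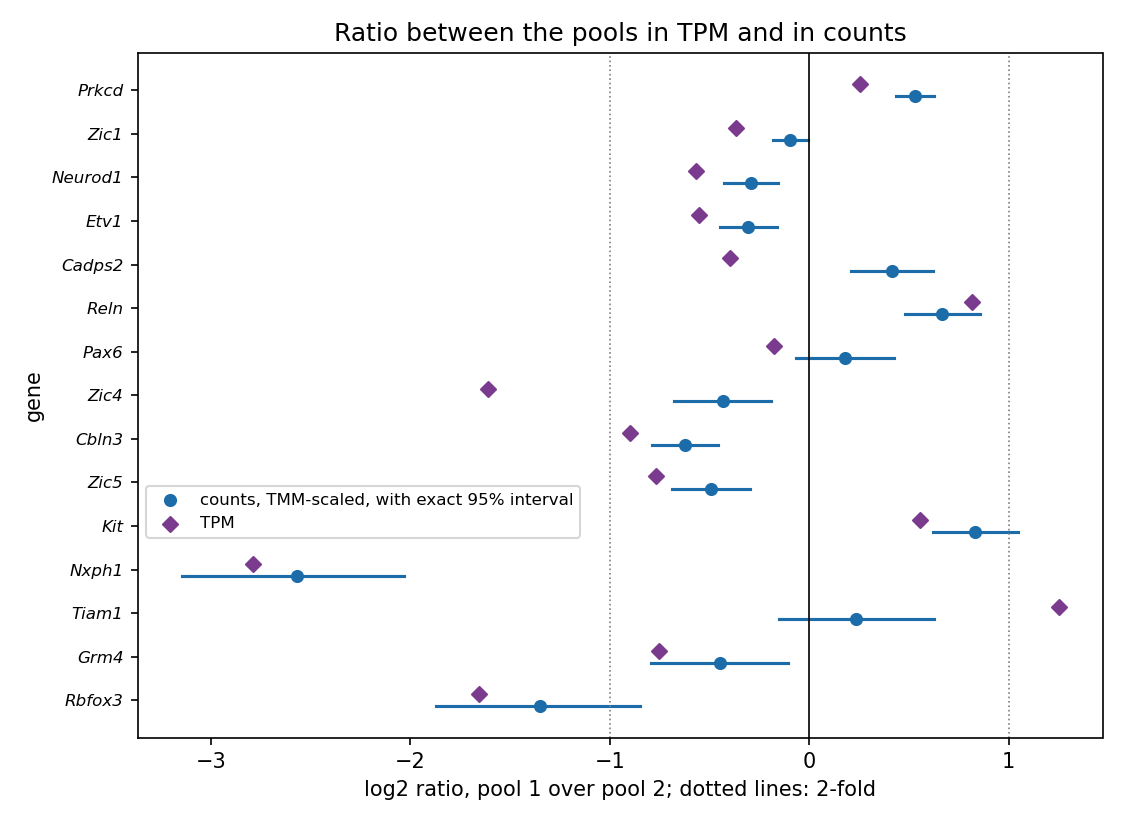
Log2 ratio of pool 1 over pool 2 on the horizontal axis for the 15 members detected in at least 1 pool, from TPM (diamonds) and from TMM-scaled counts (circles, with exact 95% intervals for counting error). Nxph1 and Rbfox3 lie beyond 2-fold on both scales, and Zic4 and Tiam1 do so by TPM only.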

How the data were processed

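The tables were deposited per library and made by the authors against mouse build mm10 with GENCODE M4, per their accompanying text deposited for each library. No source used here gives the aligner or quantifier. Per the labels, cDNA was made from total RNA with a SMARTer Ultra Low kit, and no molecular identifier is named, so intervals cover counting error only. Per the file headers, the deposited columns hold expected counts, TPM, FPKM, effective length and, by transcript, its percent within the gene. Bias between the alleles of the cross was not tested.

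Identifiers were matched to GENCODE M21 on the same build for symbols, coordinates and transcript types, and 42462 of 43346 matched a symbol. Numeric identifiers, which are not Ensembl gene identifiers, took 0.000412% (pool 1) and 0.000194% (pool 2) of counts and were left out. Spike-ins were used for scaling only. The members and all lists were chosen with earlier results of these data known. The text names all 30 members, the 3 highest genes of each list and genes at 0 counts in both pools. Some genes that this rule names are left unreported. A few genes outside that rule, such as Cerkl, Pax6os1 and A530058N18Rik, were named after their values were seen.

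Detection was set at 1 TPM. Pools were compared by TPM and by rounded counts scaled with TMM (edgeR 4.0.16). Total counts, DESeq2 1.42.0 size factors, spike-in totals, FPKM and posterior means were alternatives. Count ratios carry exact binomial 95% intervals (scipy 1.17.1), and 0 counts were given the TPM of 3 counts. With 1 group no test was made. The ratio step was tested on simulated Poisson counts with the same effective lengths in both pools. Unlike lengths, as for Zic4 and Tiam1, were therefore not covered. Windows of sequence came from RefSeq.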

Additional observations from a re-analysis of the deposited data

How the results depend on the processing

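The number of members detected in both pools was 25 at a TPM of at least 0.1, 3 at a TPM of at least 5 and 25 at 10 or more counts, against 11 as reported, where 50.8%, 13.7% and 50.4% of protein-coding genes passed, against 30.3%. With pool 1 or pool 2 left out in turn it ran from 12 to 14. The summed level of 81.8 TPM was 102 in FPKM, 151 when rescaled over nuclear protein-coding genes and 62.1 over protein-coding transcripts, an alternative chosen after seeing the data, and it ran from 74.5 to 89.0 with a pool left out. The median level of 0.70 in log2(TPM + 1) was -0.48 with a pseudocount of 0.1, 2.16 over detected members only and 0.90 in posterior mean TPM, and ran from 0.59 to 0.81 with a pool left out. The median log2 ratio, pool 1 over pool 2, of -0.35 was -0.54 with a pseudocount of 0.1, -0.14 with no filter and 0.48 under spike-in totals. The 4 of 15 members more than 2-fold apart stood beside 24.3% of all genes that reached 1 TPM in at least 1 pool. With 10 counts in both pools they became 7 of 25, against 23.8% of genes. Of the 15, they became 8 at a fold of 1.5 (45.45% of genes), 2 in TMM-scaled counts (19.8%) and 6 in spike-in-scaled counts (37.8%). They became 2 in TPM + 1 (10.3%) and 2 with 1 effective length per gene (23.5%), the last chosen after seeing the data. No paired analysis was possible because the pools form 1 group. Levels of low members are limited by depth, as for Pax2, whose level in pool 2 rests on 11 counts.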

Other observations

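Markers of microglia and endothelial cells were mostly low in the pools. Microglial genes, 6 in number and led by Tyrobp, P2ry12 and C1qb, summed to 4.80 TPM in pool 1 and 3.61 TPM in pool 2. Endothelial genes, 5 in number and led by Ly6c1, Cldn5 and Pecam1, summed to 15.3 TPM in pool 1 and 12.1 TPM in pool 2. Ly6c1 alone had 14.8 TPM in pool 1 and 10.9 TPM in pool 2.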
